A study of Homo sapiens with 8 samples.

Results

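The SR splicing factors described here are 10 genes, SRSF1, SRSF2, SRSF3, SRSF4, SRSF5, SRSF6, SRSF7, SRSF11, TRA2A and TRA2B, chosen by gene name among the 62649 genes of the deposited table. The choice was made with earlier results of these data known. All 10 were found once, and all 10 were among the 19122 genes that reached 1 TPM in 2 libraries or more and entered the tests. TPM is a transcript level scaled by gene length and by the total of its library, so levels of different genes can be compared within a library.

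RNA was sequenced from 8 libraries of 2 lines of human pancreatic cancer cells, AsPC-1 and PANC-1. Both are labelled WT and were grown for 3 days as spheroids in methylcellulose medium. Spheroids of each line then received for 24 h vehicle, 10 µM roseoflavin, 1 nM trametinib, or 10 µM roseoflavin together with 1 nM trametinib, with 1 library per line and treatment. Roseoflavin is an analogue of riboflavin, and trametinib inhibits the kinases MEK1 and MEK2 of the RAS and ERK pathway. No group was replicated, so libraries of the other line or the other compound served as replication in the tests, and p-values measure the spread over these matched libraries.

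SR proteins have RNA recognition motifs that bind exonic enhancer sequences and a domain rich in arginine and serine that draws in the splicing machinery. SRPK kinases in the cytoplasm and CLK kinases in the nucleus phosphorylate that domain, and transportin-3 carries the proteins into the nucleus. Many SR genes regulate their own level by including an exon with an early stop codon, which sends the transcript to nonsense-mediated decay. TRA2A and TRA2B are SR-like proteins that bind enhancers rich in GAA.

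The promoter sequences of 4 members are given here, and their choice does not follow the size of the roseoflavin response. SRSF2 and TRA2A had no promoter entry, and SRSF1 and SRSF5 had no bases left outside exons. SRSF4, SRSF7 and another stretch of SRSF11 had bases but are not shown, and every stretch shown holds a marked match. The log2 differences with roseoflavin in PANC-1, reported further on, were -0.19 for SRSF6, -0.07 for SRSF3 and -0.07 for TRA2B. They were -0.21 for SRSF2 and -0.18 for SRSF7, which are not shown. SRSF11 had the most negative difference of the members in AsPC-1, -0.28. A link between the sequences and the response was not tested. The sequences come from RefSeq (GRCh38.p14), run 5′ to 3′ on the gene's strand, and leave out bases that lie in an annotated exon. Capitals mark matches, on either strand, to 3 of the 6 motifs searched, which are the CCAAT box (CCAAT), the core of the GC box (GGGCGG) and the TATA box (TATAAA). The SRSF3 stretch is chr6:36594112-36594352 (plus strand), the SRSF6 stretch is chr20:43457646-43457895 (plus strand), the TRA2B stretch is chr3:185938137-185938264 (minus strand), and the SRSF11 stretch is chr1:70221130-70221369 (plus strand), before an internal start of that gene.
SRSF3: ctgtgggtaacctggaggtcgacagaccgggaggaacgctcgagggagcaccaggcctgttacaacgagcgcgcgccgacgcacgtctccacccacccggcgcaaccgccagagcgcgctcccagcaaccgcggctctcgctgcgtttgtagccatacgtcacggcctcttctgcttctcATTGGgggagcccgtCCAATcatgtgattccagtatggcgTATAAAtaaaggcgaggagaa
SRSF6: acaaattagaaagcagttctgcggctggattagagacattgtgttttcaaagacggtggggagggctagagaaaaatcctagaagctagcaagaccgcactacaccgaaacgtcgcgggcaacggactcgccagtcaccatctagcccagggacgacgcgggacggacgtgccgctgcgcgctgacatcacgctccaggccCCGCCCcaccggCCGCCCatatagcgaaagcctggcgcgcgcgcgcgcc
TRA2B: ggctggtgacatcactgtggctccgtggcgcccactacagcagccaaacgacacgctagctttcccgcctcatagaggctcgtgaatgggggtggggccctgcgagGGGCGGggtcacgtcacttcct
SRSF11: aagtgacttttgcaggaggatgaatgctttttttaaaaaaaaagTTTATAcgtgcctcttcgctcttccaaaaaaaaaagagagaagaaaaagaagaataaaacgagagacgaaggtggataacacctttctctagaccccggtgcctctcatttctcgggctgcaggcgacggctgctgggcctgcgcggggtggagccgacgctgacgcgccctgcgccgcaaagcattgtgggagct

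SRSF3 had a match to CCAAT on each strand, 2 in all, and 1 to TATAAA. SRSF6 had 2 matches to GGGCGG, TRA2B had 1, and the SRSF11 stretch had 1 to TATAAA. The SRSF6 and SRSF11 matches lie on the opposite strand. Of the stretches not shown, SRSF4 (163 bases) had 1 match to CCGGAA and SRSF7 (39 bases) had 1 to GGGCGG. The other SRSF11 stretch (61 bases) had no match to any motif searched. Promoter entries existed for 8 of the 10 members, in 10 windows of 300 bases. In those whole windows, GGGCGG was present in 6 of 10 against 45.0% of 35116 promoter windows of the same length, TATAAA in 3 of 10 against 11.5%, and CCAAT in 1 of 10 against 34.6%. Both windows of SRSF7 count among the 6 with GGGCGG, though they overlap and share a match. The other 3 motifs were CCGGAA (the ETS core), in 2 of 10 windows against 17.2%, and CACGTG (an E box) and TGACGTCA (the cyclic AMP response element), in 0 of 10 against 7.26% and 1.85%. A match describes the letters only, and no one of the 6 motifs was in all member windows.

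In the GENCODE release 29 annotation of GRCh38, all 10 members are protein-coding genes and each has at least 1 transcript annotated as a target of nonsense-mediated decay. Such a transcript is annotated for 43.8% of the 8278 protein-coding genes whose mean reached 10 TPM. SRSF7 has 6, SRSF1 has 3, SRSF2, SRSF3, SRSF4 and SRSF11 have 2 each, and SRSF5, SRSF6, TRA2A and TRA2B have 1 each. A transcript with a retained intron is annotated for 8 of the 10, all except SRSF6 and SRSF11, and for 57.3% of those genes. The deposited values are per gene, so coding transcripts and transcripts bound for decay cannot be told apart in any level below.

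As a check of the lines, EPCAM, an epithelial adhesion molecule, lay between 1224 and 1485 TPM for AsPC-1, against 14.5 to 16.8 TPM for PANC-1, and the keratin KRT18 was at 879 TPM or above in every library. The epithelial markers CDH1 and CEACAM6 were low in PANC-1, at 5.02 to 6.55 TPM and at most 0.097 TPM. In AsPC-1 they lay at 56.1 to 78.7 TPM and 1775 to 2104 TPM. VIM, a mesenchymal filament, lay between 660 and 816 TPM for AsPC-1, against 3132 to 3391 TPM for PANC-1. The mesenchymal marker FN1 did not pass the filter, at 0.533 TPM or less in every library. The immune marker PTPRC reached at most 0.019 TPM and the endothelial marker PECAM1 at most 0.038 TPM. Of the fibroblast markers, PDGFRB reached at most 0.892 TPM, and the collagen gene COL1A1 was at 0.037 to 0.121 TPM for AsPC-1 but 98.9 to 107 TPM for PANC-1. The part of these markers in the results was not tested. The 37 mitochondrially encoded genes took 41.2% to 44.1% of the total in AsPC-1 libraries and 22.8% to 25.6% in PANC-1 libraries, a difference that touches the comparison of the lines below.

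The members together made up 832 to 893 TPM in the AsPC-1 libraries and 1033 to 1167 TPM in the PANC-1 libraries. In AsPC-1 their sum was 893 TPM with vehicle, 836 with roseoflavin, 832 with trametinib and 853 with both. In PANC-1 it was 1167 TPM with vehicle, 1058 with roseoflavin, 1167 with trametinib and 1033 with both. Both PANC-1 libraries with roseoflavin were thus below both without it, whereas in AsPC-1 the 3 treated libraries lay close together below vehicle. As a share of TPM outside the mitochondrially encoded genes, the PANC-1 sum was 0.157%, 0.139%, 0.155% and 0.134% (order: vehicle, roseoflavin, trametinib and both). The AsPC-1 sum was 0.152%, 0.149%, 0.144% and 0.145%.

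SRSF2, a nuclear speckle protein that binds exonic enhancers, had the highest mean level of the 10 in both lines, 154 ± 11.6 TPM in AsPC-1 and 243 ± 20.6 TPM for PANC-1 (SD, n = 4 libraries of different treatment). Its level is uncertain because a microRNA gene lies inside it, as described below. In AsPC-1 the order of means continued with SRSF6 (151 TPM), SRSF1 (116), SRSF7 (96.9), TRA2A (92.2), SRSF5 (80.8), SRSF3 (78.5), SRSF11 (44.4), TRA2B (23.1) and SRSF4 (16.8). In PANC-1 it continued with SRSF1 (170 TPM), SRSF6 (138), SRSF7 (127), TRA2A (101), SRSF5 (91.2), SRSF3 (86.4), SRSF11 (73.7), SRSF4 (38.6) and TRA2B (36.9). Neighbours whose 4 libraries overlapped were SRSF2 and SRSF6, SRSF7 and TRA2A, and SRSF5 and SRSF3 in AsPC-1. In PANC-1 they were SRSF6 and SRSF7, TRA2A and SRSF5, SRSF5 and SRSF3, and SRSF4 and TRA2B. The highest mean was 9.17 times the lowest in AsPC-1 and 6.59 times in PANC-1. SRSF4 and TRA2B were thus the least abundant members in both lines, and TRA2A, the paralogue of TRA2B, was above TRA2B in every library.

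**Figure D1:**
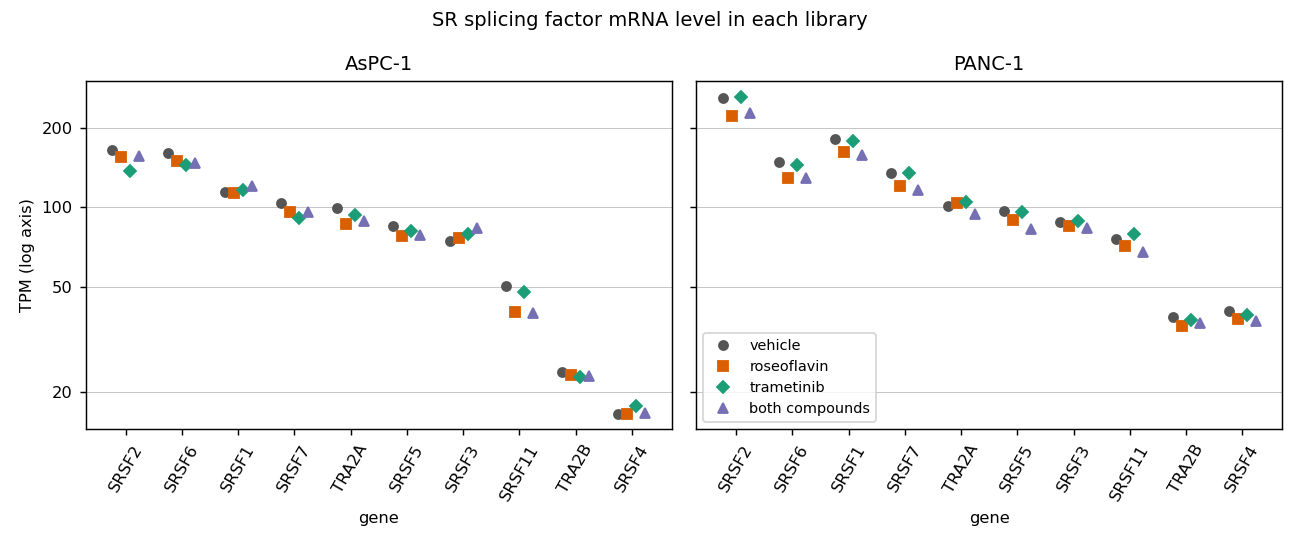
TPM (log axis) of each SR splicing factor in the 4 libraries of AsPC-1 (left) and PANC-1 (right), 1 point per library, with the shape giving the treatment and the genes in the same order in both panels. SRSF2 has the highest mean in both lines, though SRSF6 (145 TPM) is above it (137 TPM) in the AsPC-1 trametinib library, SRSF4 and TRA2B are lowest, and in PANC-1 the 2 libraries with roseoflavin sit below the 2 without it for 9 of the 10 genes.

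The first comparison asks how the members respond to roseoflavin in PANC-1, where 2 libraries with the compound were set against 2 without it. All 10 members were lower with roseoflavin, by a median log2 difference of -0.161, while the median over all genes tested was -0.000 and 50.4% of them were lower. For 9 of the 10, all but TRA2A, both libraries with roseoflavin were below both without it, a pattern met by 22.7% of all genes tested and by 25.7% of those whose mean reached 10 TPM. Because the members were chosen with earlier results of these data known, this contrast is a description and not independent support. No gene of the 19122 passed an adjusted p of 0.05 in limma with Benjamini-Hochberg adjustment (0% called), 2074 genes (10.8%) had an unadjusted p below 0.05, and 5.01% had one and were lower. Of the members, 6 had an unadjusted p below 0.05, all lower, so the lower levels are given as values and not as calls. That number was 2 without a trend in the prior variance. The SE and p within a line rest on a spread pooled over both lines. Leaving out 1 PANC-1 library leaves no PANC-1 spread, so only the sizes are given for that case. Without the PANC-1 trametinib library or that with both compounds, 9 of 10 members were lower, with a median of -0.108. Without the PANC-1 vehicle or roseoflavin library, all 10 were lower, with a median of -0.170.

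Values below are listed in the order vehicle, roseoflavin, trametinib and both compounds. SRSF1, which binds purine-rich exonic enhancers and is known as an oncoprotein when abundant, lies at chromosome 17, 58003360 to 58007346, minus strand. It was at 182, 162, 179 and 158 TPM in PANC-1 and at 114, 113, 116 and 121 TPM in AsPC-1. The roseoflavin libraries were the lower pair in PANC-1, with no overlap, and lay on both sides of the others in AsPC-1. The log2 difference was -0.17 (SE 0.0383) in PANC-1, with a limma adjusted p of 0.397, and 0.02 (SE 0.0383) in AsPC-1, with an adjusted p of 0.877.

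SRSF2 (chromosome 17, 76734115 to 76737374, minus strand) was at 260, 223, 263 and 228 TPM in PANC-1 and at 165, 156, 137 and 157 TPM in AsPC-1. Its roseoflavin pair was clearly apart from the other pair in PANC-1, while in AsPC-1 the trametinib library alone was low. The log2 difference with roseoflavin was -0.21 (SE 0.0744, limma adjusted p = 0.46) in PANC-1 and 0.06 (SE 0.0744, adjusted p = 0.814) in AsPC-1. A microRNA gene of 99 bases, MIR636 (chromosome 17, 76736450 to 76736548), lies inside SRSF2 on the same strand, and an exon covers it in 6 of 11 SRSF2 transcripts. MIR636 was listed at 523, 424, 491 and 410 TPM in PANC-1 and at 323, 276, 237 and 309 TPM in AsPC-1. How reads were split between this pair of genes is not given in the sources used here, so both levels are uncertain.

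SRSF3 and SRSF7 are small SR proteins that also act as adaptors for mRNA export through NXF1. SRSF3 (chromosome 6, 36594353 to 36605600, plus strand) was at 88.2, 85.0, 89.1 and 83.3 TPM in PANC-1 and at 74.7, 76.5, 79.4 and 83.5 TPM in AsPC-1. It was lower with roseoflavin in both PANC-1 comparisons of 1 library with 1 and higher in both AsPC-1 comparisons, by small amounts: -0.07 (SE 0.037, limma adjusted p = 0.549) and 0.05 (SE 0.037, adjusted p = 0.636) on the log2 scale. SRSF7 (chromosome 2, 38743599 to 38751494, minus strand) was at 135, 121, 135 and 116 TPM in PANC-1 and at 104, 96.2, 91.0 and 96.2 TPM in AsPC-1. Its roseoflavin pair was the lower one in PANC-1 (log2 difference -0.18, SE 0.062, adjusted p = 0.453) and lay between the other libraries in AsPC-1 (-0.02, SE 0.062, adjusted p = 0.976).

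SRSF4, SRSF5 and SRSF6 form a subgroup with a pair of RNA recognition motifs each. SRSF4 (chromosome 1, 29147743 to 29181987, minus strand) was at 40.5, 37.7, 39.1 and 37.1 TPM in PANC-1 and at 16.5, 16.5, 17.6 and 16.6 TPM in AsPC-1. SRSF5 (chromosome 14, 69726900 to 69772005, plus strand) was at 96.7, 89.4, 96.3 and 82.5 TPM in PANC-1 and at 85.0, 78.0, 81.4 and 78.6 TPM in AsPC-1. SRSF6 (chromosome 20, 43457928 to 43464247, plus strand) was at 149, 129, 145 and 129 TPM in PANC-1 and at 161, 150, 145 and 148 TPM in AsPC-1. The roseoflavin pair was the lower one for all of these genes in PANC-1, and in AsPC-1 for SRSF5 but not for SRSF4 or SRSF6. In PANC-1 the log2 differences were -0.09 (SE 0.0441, limma adjusted p = 0.551) for SRSF4, -0.17 (SE 0.0475, adjusted p = 0.413) for SRSF5 and -0.19 (SE 0.0495, adjusted p = 0.406) for SRSF6. In AsPC-1 they were -0.04, -0.09 and -0.03, with adjusted p-values of 0.807, 0.561 and 0.849.

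SRSF11, an SR-related protein that binds U2AF2, had the largest roseoflavin difference of the members in AsPC-1. It lies at chromosome 1, 70205682 to 70253052, plus strand, and was at 50.1, 40.2, 47.6 and 39.7 TPM in AsPC-1 and at 76.2, 71.4, 79.1 and 68.0 TPM in PANC-1. Both roseoflavin libraries were below both others in each line. The log2 difference was -0.28 (SE 0.0489, limma adjusted p = 0.37) in AsPC-1 and -0.15 (SE 0.0489, adjusted p = 0.444) in PANC-1. With the values as deposited, it was the only member to pass a 1.2-fold difference between single libraries, with roseoflavin against vehicle and both compounds against vehicle in AsPC-1 (-0.31 and -0.33 on the log2 scale). Of all genes, 14.7% and 13.7% were lower past that fold in those comparisons.

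TRA2A (chromosome 7, 23504780 to 23532041, minus strand) was at 101, 104, 105 and 94.2 TPM in PANC-1 and at 99.5, 86.6, 93.8 and 88.7 TPM in AsPC-1. The roseoflavin pair of TRA2A was the lower one in AsPC-1, while in PANC-1 the library with both compounds alone was low. TRA2B (chromosome 3, 185915906 to 185938136, minus strand) was at 38.3, 35.6, 37.5 and 36.4 TPM in PANC-1 and at 23.7, 23.1, 22.7 and 23.0 TPM in AsPC-1. The log2 differences with roseoflavin were -0.06 (SE 0.0666, limma adjusted p = 0.787) in PANC-1 and -0.14 (SE 0.0666, adjusted p = 0.516) in AsPC-1 for TRA2A, and -0.07 (SE 0.0439, adjusted p = 0.614) in PANC-1 for TRA2B. The 2 roseoflavin libraries of TRA2B lay within 1 TPM of the others in AsPC-1, where the log2 difference was -0.0071.

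In AsPC-1 the members as a group differed little with roseoflavin, 7 lower and 3 higher, with a median log2 difference of -0.026 against -0.028 for all genes tested, of which 61.1% were lower. Both libraries with roseoflavin were below both without it for 3 of 10 members, SRSF5, SRSF11 and TRA2A, and for 21.6% of all genes, and they were above both for 0 of 10 against 10.6%. No gene was called in limma (0% of 19122), 2163 (11.3%) had an unadjusted p below 0.05, and SRSF11 was the 1 member among them, in the 8.57% of genes that were also lower. The share of mitochondrially encoded genes was 44.1% in the roseoflavin library and 41.2% in the vehicle library. With those genes removed and the rest rescaled, 5 members were lower and 5 higher in AsPC-1, and all 10 stayed lower in PANC-1 with a median of -0.198 against -0.030 for all genes.

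Single libraries were then compared without a test. In PANC-1, 9 of 10 members were lower with roseoflavin than with vehicle (median -0.108 on the log2 scale, 49.1% of all genes lower), and 10 of 10 were lower with both compounds than with trametinib (median -0.170, 47.3% lower). None passed 1.2-fold, against 8.29% and 9.77% of all genes lower past that fold. In AsPC-1, 8 of 10 were lower with roseoflavin than with vehicle (median -0.087 against -0.046 for all genes, of which 61.5% were lower). With both compounds, 4 of 10 were lower than with trametinib (median 0.027 against -0.005 for all genes, of which 51.3% were lower). SRSF2 went from -0.07 in the first of these to 0.19 in the second, which rests on its low trametinib library. SRSF5 and SRSF11 were the members lower with roseoflavin in 4 of 4 matched comparisons, a pattern met by 10.2% of all genes.

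**Figure D2:**
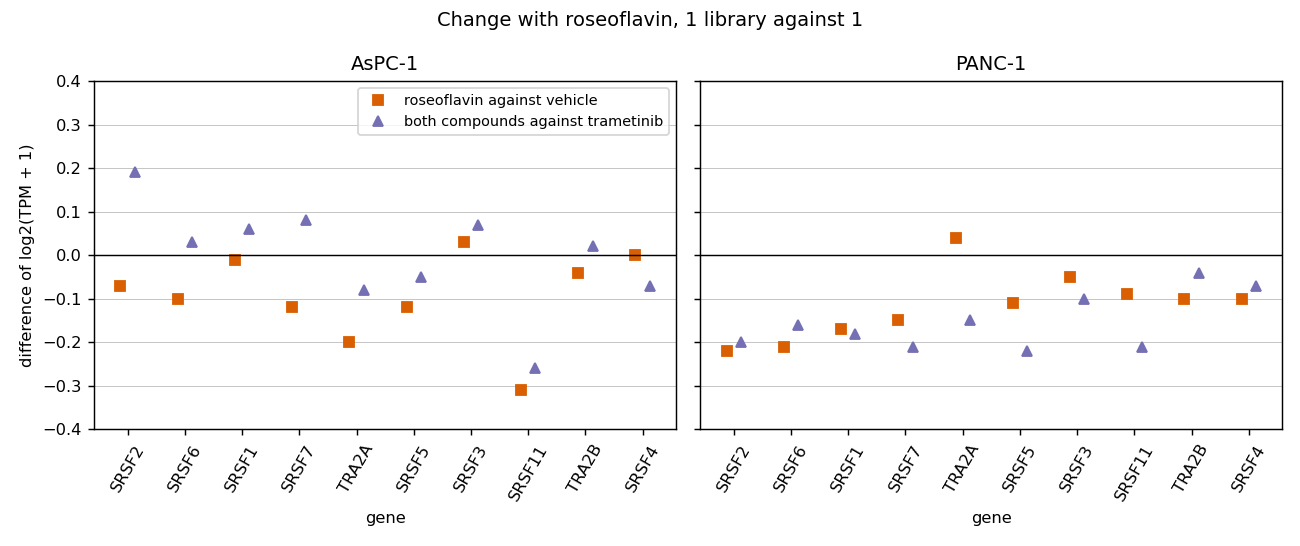
Difference of log2(TPM + 1) for each SR splicing factor between single libraries, roseoflavin against vehicle (squares) and both compounds against trametinib (triangles), in AsPC-1 (left) and PANC-1 (right). In PANC-1 all points but the TRA2A square lie below 0, and in AsPC-1 SRSF11 is lowest at -0.31 and -0.26 while several genes lie on both sides of 0.

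The difference between the lines was tested as the roseoflavin response of PANC-1 minus that of AsPC-1. The value was negative for 8 of 10 members, all but SRSF11 and TRA2A, and for 42.1% of all genes, with a median of -0.104 against 0.036 for all genes. No gene was called (0% of 19122, limma), and 2227 (11.6%) had an unadjusted p below 0.05, with SRSF1 the 1 member among them. SRSF1 had the smallest p of the members, with a difference of -0.20 (SE 0.0541, adjusted p = 0.379). SRSF2 stood at -0.27 (SE 0.105, adjusted p = 0.448), SRSF3 at -0.13 (SE 0.0523, adjusted p = 0.46) and SRSF11 at 0.13 (SE 0.0691, adjusted p = 0.531). The number of members with an unadjusted p below 0.05 (limma) depended on the processing. It was 5 under quantile normalization (2275 of 19122 genes) and 5 with mitochondrially encoded genes removed (2334 of 19085 genes). Member medians were then -0.133 and -0.166, against -0.006 and -0.013 for all genes. Without a trend in the prior variance it was 0. A different response of the lines was therefore not called for any member.

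Over both lines, with 4 libraries against 4, all 10 members were lower with roseoflavin, with a median log2 difference of -0.087 against -0.017 for all genes, of which 57.8% were lower. No gene was called (0% of 19122, limma), and 1358 (7.1%) had an unadjusted p below 0.05. SRSF11, at -0.22 (SE 0.0438, adjusted p = 0.599), and SRSF5, at -0.13 (SE 0.0382, adjusted p = 0.659), were the 2 members among them, both lower as were 5.07% of all genes, and each was lower in 4 of 4 matched comparisons. The adjusted p of the other 8 members ran from 0.704 for SRSF6 to 0.971 for SRSF3.

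The members differed little with trametinib. Over both lines 7 members were lower and 3 higher (41% of all genes were lower), with a median log2 difference of -0.031 against 0.018 for all genes, and adjusted p-values of 0.865 to 0.986 in limma. No gene was called (0% of 19122), and 938 (4.91%) had an unadjusted p below 0.05, with no member among them. In PANC-1 the trametinib pair lay neither wholly below nor wholly above the other pair for any member, against 11.6% and 16.1% of all genes, and no gene was called in limma (0% of 19122, with 919 or 4.81% at an unadjusted p below 0.05).

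In AsPC-1 the trametinib pair was above the other pair for SRSF1, SRSF3 and SRSF4 (3 of 10, against 24% of all genes) and below it for SRSF6 and TRA2B (2 of 10, against 13.3%). SRSF3 had the smallest p, with a log2 difference of 0.11 (SE 0.037, limma adjusted p = 0.351). No gene was called there (0% of 19122), and 2691 (14.1%) had an unadjusted p below 0.05. In single libraries, trametinib against vehicle in AsPC-1 gave -0.26 for SRSF2, -0.20 for SRSF7 and -0.15 for SRSF6, while the same comparison in PANC-1 ran from -0.05 to 0.05 over all members. The trametinib response of PANC-1 minus that of AsPC-1 was positive for 5 members and negative for 5 (53.2% of all genes were negative), with no gene called (0% of 19122, and 1854 or 9.7% at an unadjusted p below 0.05, limma).

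The combination was compared with the sum of both compounds on the log scale. The interaction was positive for 5 members and negative for 5 (42.4% of all genes were negative), with a median of 0.014 against 0.025 for all genes. Its largest value was 0.14 (SE 0.157) for SRSF2, and every member had a limma adjusted p of 1.0. No gene was called (0% of 19122), and 536 (2.8%) had an unadjusted p below 0.05. The interaction was fitted as 1 value for both lines, though single libraries moved opposite ways. The member median for adding roseoflavin went from -0.087 without trametinib to 0.027 with it in AsPC-1. In PANC-1 it went from -0.108 to -0.170. Whether the interaction differs between the lines was not tested. In PANC-1 the library with both compounds was below vehicle for 10 of 10 members (median -0.174, 45.9% of all genes lower), and it differed from the roseoflavin library by -0.14 to 0.03.

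The members' levels also differed between the lines. With the values as deposited, 9 of 10 members passed an adjusted p of 0.05 between 4 PANC-1 and 4 AsPC-1 libraries matched by treatment (limma), against 83.3% of all genes. Of the members 8 were higher in PANC-1 (62% of all genes) and SRSF6 was lower (21.3%), and the median of all genes was itself 0.554 on the log2 scale. SRSF4 had the largest difference, 1.16 (SE 0.0443, adjusted p = 4.23e-06), and its 4 PANC-1 libraries, 37.1 to 40.5 TPM, were far above the 16.5 to 17.6 TPM of AsPC-1. SRSF11 followed at 0.72 (SE 0.0488, adjusted p = 3.95e-05), then SRSF2 at 0.66, TRA2B at 0.65, SRSF1 at 0.55 and SRSF7 at 0.38. SRSF5, at 0.17, SRSF3, at 0.14, and SRSF6, at -0.13, were nearer 0, and TRA2A, at 0.13 (adjusted p = 0.0515), was not called.

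The higher mitochondrial share of AsPC-1 lowers every other gene's TPM there. With the mitochondrially encoded genes removed and the rest rescaled, the median of all genes was 0.246, and 8 of 10 members were called against 79.6% of all genes. SRSF4 was still higher in PANC-1 by 0.79 (limma adjusted p = 4.7e-05), as were SRSF11 by 0.34, TRA2B by 0.28 and SRSF2 by 0.27 (adjusted p = 0.000511, 0.00272 and 0.0317). SRSF6 was then lower by -0.52 (adjusted p = 0.000424), and SRSF3, SRSF5 and TRA2A turned to -0.25, -0.22 and -0.25, each called as lower. SRSF1 at 0.16 (adjusted p = 0.0698) and SRSF7 at -0.01 (adjusted p = 0.942) were not called. The direction relative to 0 for SRSF3, SRSF5, SRSF7 and TRA2A thus depended on the scaling. Relative to the median of all genes, SRSF4, SRSF11, SRSF2 and TRA2B were higher under both scalings. SRSF3, SRSF5, SRSF6, SRSF7 and TRA2A were lower than that median under both. Leaving out single libraries moved the adjusted p from 0.0219 to 0.158 for SRSF3 and from 0.0178 to 0.165 for SRSF6. SRSF3 lost its call when any 1 library other than the 2 with both compounds was left out, and SRSF6 when any 1 other than the 2 with trametinib alone was. SRSF5 lost its call without the AsPC-1 or the PANC-1 roseoflavin library (highest adjusted p 0.0513), and TRA2A gained one without either vehicle library (lowest 0.0429). SRSF3 and SRSF6 also lost their calls with no filter on low values (adjusted p = 0.0616 and 0.0654) and without a trend in the prior variance (0.0807 and 0.0834). TRA2A gained one with a pseudocount of 0.1 (0.0497) and with the filter at a mean of 10 TPM (0.0466). Over all these alternatives, 6 to 10 members were called.

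**Figure D3:**
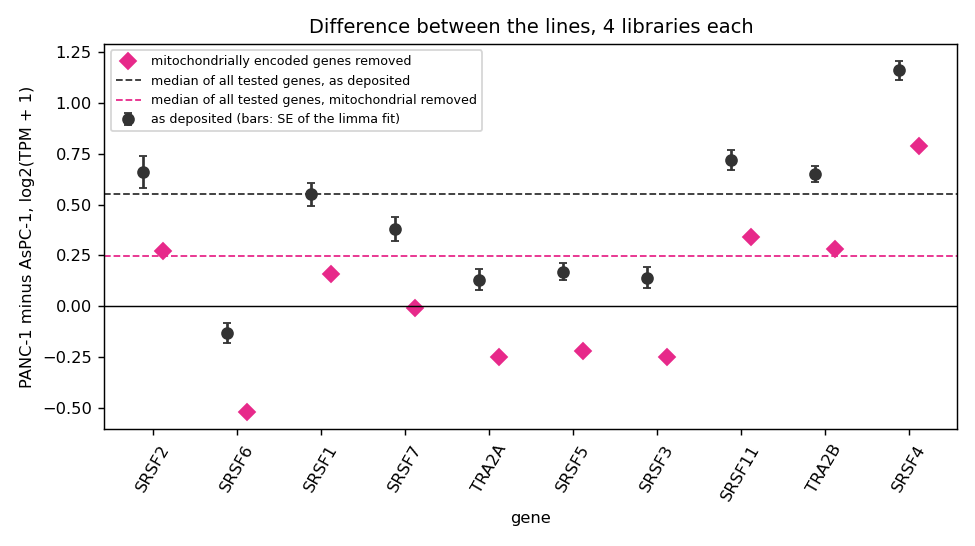
Difference in log2(TPM + 1) between PANC-1 and AsPC-1 (4 libraries each, matched by treatment) for each SR splicing factor, as deposited (circles, bars are the SE of the limma fit) and with mitochondrially encoded genes removed (diamonds), with dashed lines at the median of all genes tested (0.554 and 0.246). SRSF4 lies highest at 1.16 and 0.79 and SRSF6 lowest at -0.13 and -0.52, and removal of the mitochondrial genes moves SRSF3, SRSF5, SRSF7 and TRA2A below 0.

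The other genes of the SR pathway were described by role, with no gene of any list called for roseoflavin over both lines or within a line. The lists, like the members, were chosen with earlier results of these data known. Of the other SR proteins, SRSF8, SRSF9 and SRSF10 were tested. All 3 were lower with roseoflavin over both lines (57.8% of all genes were), with a median of -0.031. SRSF12 did not pass the filter, at 0 TPM in every AsPC-1 library and 0.506 to 0.687 TPM in PANC-1. SRSF10, a splicing regulator activated by dephosphorylation in heat shock, was at 36.7, 32.4, 37.2 and 32.6 TPM in AsPC-1 and at 40.4, 35.9, 41.0 and 35.6 TPM in PANC-1. Its roseoflavin pair was the lower one in each line, and its log2 difference was -0.18 (SE 0.0308, limma adjusted p = 0.595). SRSF9, the most abundant of these, was at -0.03 (SE 0.041).

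All 8 kinases of SR proteins were lower with roseoflavin over both lines (57.8% of all genes were), with a median of -0.136. Both roseoflavin libraries were below both others for 5 of 8 in AsPC-1 (21.6% of all genes) and 6 of 8 in PANC-1 (22.7%). SRPK2 in PANC-1 was at 28.8, 29.7, 29.4 and 31.8 TPM, with the roseoflavin pair above (named after its values were seen). CLK4 was at 5.92, 4.82, 5.85 and 4.77 TPM in AsPC-1 and at 9.30, 7.48, 9.35 and 7.08 TPM in PANC-1, with a log2 difference of -0.28 (SE 0.0440, limma adjusted p = 0.551). PRPF4B was at -0.17 (SE 0.0367, adjusted p = 0.599), CLK2 at -0.12 and SRPK1 at -0.04. In AsPC-1 the median of the kinases was -0.143, while that of the 10 SR factors was -0.026, and neither group had a called gene.

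Among 19 SR-related proteins and partners in splice site recognition, 18 were lower over both lines (57.8% of all genes were), with a median of -0.080. Both roseoflavin libraries were below both others for 17 of 19 in PANC-1 (22.7% of all genes) and for 6 of 19 in AsPC-1 (21.6%). RBM39, a partner of U2AF2, was at -0.17 (SE 0.0369) and LUC7L3, a protein of the U1 particle, at -0.16 (SE 0.0362), both with a limma adjusted p of 0.599. U2AF2, which binds the polypyrimidine tract, was at 402, 351, 391 and 355 TPM in PANC-1 and at 100, 93.6, 88.6 and 96.4 TPM in AsPC-1. SRRM2, a scaffold of nuclear speckles, was at -0.15 (SE 0.0708) over both lines.

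The hnRNP proteins, many of which oppose SR proteins at splice sites, are abundant RNA-binding proteins. In this list 15 of 18 had both roseoflavin libraries below both others in PANC-1 (22.7% of all genes) and 2 of 18 in AsPC-1 (21.6%). Their median differences were -0.066 in PANC-1 and 0.037 in AsPC-1. HNRNPH1 was at 112, 96.5, 101 and 94.1 TPM in AsPC-1 and at 164, 137, 158 and 137 TPM in PANC-1. Its log2 difference over both lines was -0.19 (SE 0.0394, limma adjusted p = 0.599), whereas its paralogue HNRNPH2 stood at 0.07 (SE 0.0383). The abundant HNRNPA1 and HNRNPF stood at -0.03 and -0.01.

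Of 4 import and export partners, 3 were lower over both lines (57.8% of all genes were), with a median of -0.030. NXF1, the export receptor, was at -0.15 (SE 0.0471, limma adjusted p = 0.659), TNPO3, the importer of SR proteins, at -0.04 and TNPO1 at 0.07. ALYREF, an export adaptor, stood at 0.15 in AsPC-1 and -0.19 in PANC-1. The nonsense-mediated decay factors were nearer 0, with 7 of 10 lower and a median of -0.012. In each line, 1 of 10 had both roseoflavin libraries below both others (21.6% of all genes in AsPC-1, 22.7% in PANC-1). UPF3B was at -0.05, SMG1 at -0.03 and SMG5 at 0.00. Of the 15 core Sm and spliceosome proteins, 6 were lower and 9 higher, with a median of 0.005. SF3B1 was at -0.11, SNRPD2 at 0.07 and SNRPC at -0.01. In PANC-1 their median was -0.026, with 5 of 15 below without overlap (22.7% of all genes), against -0.161 and 9 of 10 for the SR splicing factors. Differences between lists were not tested.

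**Figure D4:**
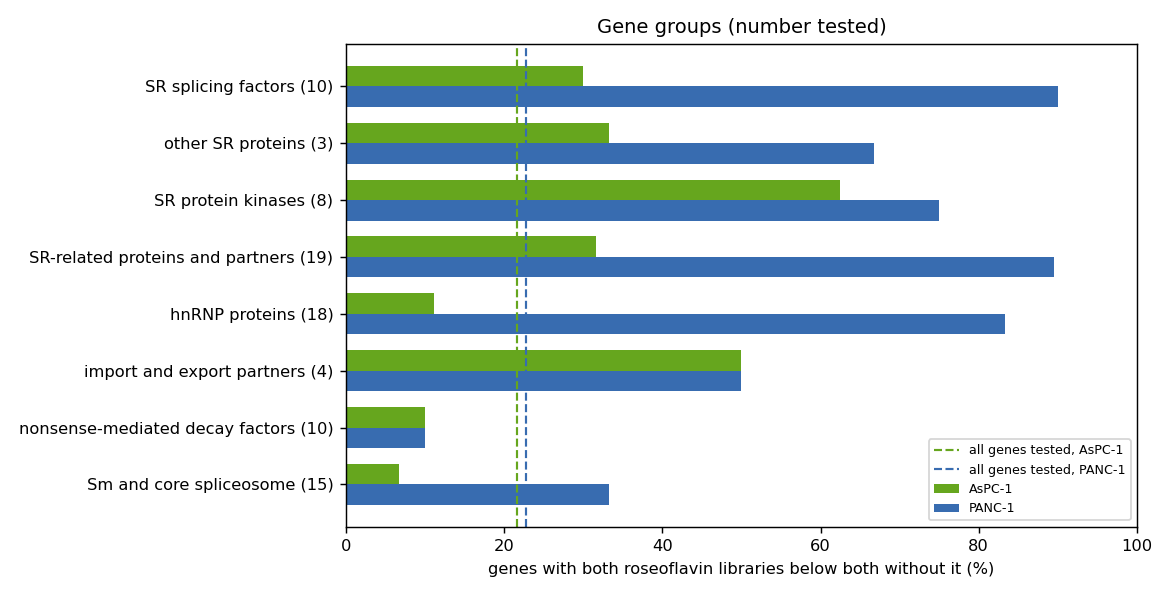
Percentage of the genes tested in each group whose 2 roseoflavin libraries both lie below the 2 libraries without it, in AsPC-1 (green) and PANC-1 (blue), with dashed lines at the share of all genes tested (21.6% and 22.7%). In PANC-1 the SR splicing factors (90.0%), SR-related proteins (89.5%) and hnRNP proteins (83.3%) lie highest and the nonsense-mediated decay factors (10.0%) lowest.

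Each member's pattern over the 8 libraries was compared with the mean of the 10, both as log2(TPM + 1) centred within each line. The mean PANC-1 profile was 0.070, -0.048, 0.067 and -0.089 (order: vehicle, roseoflavin, trametinib and both), and the AsPC-1 profile was 0.058, -0.036, -0.011 and -0.011. Pearson's r with it, as a description over 8 libraries that include the member itself, was 0.963 for SRSF5, 0.93 for SRSF6 and 0.925 for SRSF7, and lowest for SRSF3 at 0.306. Of 8620 other named genes whose mean reached 10 TPM, the most alike were PIP5K1C (r = 0.979), MYO18A (0.976), HSPH1 (0.972), PHRF1 (0.969) and ANKRD13D (0.968). HSPH1, a cytosolic chaperone, was at 59.0, 52.5, 58.3 and 51.0 TPM in PANC-1 and at 36.8, 34.0, 35.5 and 34.0 TPM in AsPC-1. The 8 libraries share their scaling to a common total, and the ranking over so many genes has no test.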

How the data were processed

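RNA was measured in 8 libraries, grouped by the line and treatment in their labels. Libraries were made with a kit that selects polyadenylated RNA and keeps the strand, per the labels' protocols. The authors deposited 1 table of TPM per gene, and each library sums to 1000000 TPM, so depth is unknown and no counting interval can be given. STAR 2.7.3a, HTSeq 2.0.2 and the build hg38 are named in the submitters' processing notes, and the counting settings are not given in the sources used here. The 985926 blank rows of the table were dropped.

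Values were analysed as log2(TPM + 1), which understates differences of low genes, for genes that reached 1 TPM in 2 libraries or more. Linear models were fitted to all 19122 genes with limma 3.58.1 in R 4.3.3 (lmFit, eBayes with trend), adjusted by the Benjamini-Hochberg method over all genes, threshold 0.05. Treatment was a block for the line difference (3 residual degrees of freedom), line and the other compound were additive for effects over both lines (4), both compounds were nested in line for effects within lines and their difference (2), and the interaction had line as a block (3). The models were run on simulated data with independent noise for each gene. The outcome is not given here, so the smallest change that these fits could call is not stated. Single libraries were compared without a test, past 1.2-fold. Annotation came from GENCODE release 29.

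All 10 members were named, and from each gene list the 2 genes with the smallest p for roseoflavin over both lines, the 2 with the largest mean TPM, and the 5 genes most alike in pattern. The rule picks the members by name, and both it and the lists were chosen with earlier results of these data known. The alternatives were a pseudocount of 0.1, no filter, a filter at a mean of 10 TPM, quantile normalization, removal of mitochondrially encoded genes, eBayes without trend and leaving out each library. Trametinib as an additive term in the nested model, and the non-overlapping libraries under both rescalings, were added after seeing the data.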

Additional observations from a re-analysis of the deposited data

How the results depend on the processing

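No treatment comparison called a member under any alternative run, and all 10 members were lower with roseoflavin in PANC-1 under quantile normalization and with mitochondrially encoded genes removed. The counts of members with non-overlapping roseoflavin libraries stayed at 9 in PANC-1 and 3 in AsPC-1 under both. The line difference is matched by treatment, with treatment as a block. Libraries could not be paired by replicate number, because each group has 1 library. Depth is unknown, and the fits have 4 residual degrees of freedom at most and 2 within lines.

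Genes called between the lines numbered 8313 instead of 15921 with the filter at a mean of 10 TPM, which tests 9368 genes. With trametinib additive, 5 genes, no member among them, differed in roseoflavin response between the lines instead of 0, and this model has 3 residual degrees of freedom. Members lower past 1.2-fold went from 1 to 0 for AsPC-1 roseoflavin against vehicle under quantile normalization and with mitochondrial genes removed. They went from 0 to 1 and 2, respectively, for PANC-1 with both compounds against vehicle, and from 0 to 1 for AsPC-1 with both against trametinib with mitochondrial genes removed; the cause was not tested.

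The line difference reversed under quantile normalization and mitochondrial removal, respectively, for SRSF3 (-0.30, -0.25), SRSF5 (-0.27, -0.22), SRSF7 (-0.05, -0.0055) and TRA2A (-0.30, -0.25), while the median of all genes moved from 0.554 to 0.042 and 0.246. The AsPC-1 roseoflavin difference reversed likewise for SRSF7 (0.0037, 0.0071) and TRA2B (0.03, 0.02).

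Leaving out 1 library reversed differences near 0, with ranges of -0.05 to 0.02 for SRSF3 with roseoflavin over both lines and -0.15 to 0.04 for TRA2A in PANC-1. In AsPC-1 the ranges were -0.01 to 0.06 for SRSF1, -0.07 to 0.19 for SRSF2, -0.07 to 0.00041 for SRSF4, -0.10 to 0.03 for SRSF6, -0.12 to 0.08 for SRSF7 and -0.04 to 0.02 for TRA2B.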

Other observations

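MFSD11, a gene on the strand opposite SRSF2, was at 5.99 to 11.4 TPM, and the 13 named SRSF pseudogenes reached at most 0.575 TPM in any library. On the same strand, SRSF1 overlaps the annotated gene AC015813.2 and SRSF4 overlaps RF02271. On the opposite strand, SRSF1 overlaps AC015813.5 and SRSF11 overlaps AL353771.1. How reads were split there is likewise not given in the sources used here.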
